A study of Gasterosteus aculeatus with 12 samples.

Results

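RNA of threespine stickleback (*Gasterosteus aculeatus*) embryos was searched for places where neighbouring bases of the genome carried the same base change in the reads: several A-to-G sites in a row, or several T-to-C sites in a row. A run was at least 3 consecutive sites with neighbours at most 200 bp apart, all A in the reference and G in the alternate reads, or all T and C. A site was eligible when it was listed in all 12 embryos outside the unplaced sequence, had at least 60 reads summed over the embryos (pooled reads), an alternate base in 5% to 95% of them and at most 5% of its reads at low mapping quality. The rule found 383 such runs with 1715 sites among 184196 eligible sites of all kinds. Runs of any base change built in the same way numbered 1210, with 4312 sites. The members were selected on the base change, the distance between sites and the pooled reads, alternate share and mapping quality, so the number of runs and their pooled shares are given as a description without a test.

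The 12 samples were whole F1 embryos of a cross between 2 stickleback lines, frozen at 72 hours post-fertilization, at stage 19/20. LITC is, per the study, a low-spine anadromous population, and the high-spine line was bred from a cross between Boulton Lake and Bodega Bay fish; which line gave the mothers of these embryos is not given in the labels. All embryos carried the same cross and none was treated, so they formed 1 group, and each embryo was 1 library. The labels do not say which parents each embryo had. The edgeR and DESeq2 tests given below use the spread between these embryos. The p-values of the chi-square test set the differences among embryos against the counting of reads only, with reads taken as independent. The counted reads per embryo ranged from 16302333 to 27003127 with a median of 23745251, and the reads at the sites of the runs from 56314 to 109915 with a median of 87411.

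Adenosine deaminases acting on RNA (ADAR enzymes) convert adenosine to inosine in double-stranded RNA. Inosine pairs with cytosine, so that a sequencer reads it as guanosine, and an edited transcript appears as an A-to-G change against the genome. Long double-stranded stretches, such as those that inverted repeats form within a transcript, can be edited at many adenosines, a pattern known as hyperediting, and each molecule is usually edited at some of them only. An inherited A-to-G variant gives the same letters in the reads, but in an F1 embryo it is carried by neither, 1 or both of the parental copies. The deposited counts do not give the strand of the reads. T-to-C on the reference strand is therefore the form in which A-to-G in a transcript of the opposite strand would be listed. The rule ended a run where the change switched, so by definition no run could hold both A-to-G and T-to-C sites. No genome of the files' build was used here, so the bases around the sites, repeats and genes are not described, and runs are given by their position on *gasAcu1-4*.

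A-to-G and T-to-C sites formed runs far longer than those of any other base change. Of the 383 runs, 282 had 3 sites, 49 had 4 or 5 sites and 52 had 6 or more sites, and the longest had 46 sites. The 52 longest runs held 659 of the 1715 sites, 43 of them had 7 or more sites and 29 had 10 or more. G-to-A or C-to-T sites, the opposite change, were the comparison. They were more frequent among the eligible sites (64451 against 44181) and made more runs (665), but 585 of those had 3 sites, 77 had 4 or 5 and only 3 had 6 sites, which was the longest. The other 4 kinds of base change made between 28 and 57 runs each, and none exceeded 5 sites. These kinds had fewer eligible sites, 15754 to 22438 each, of which 0.443% to 0.901% lay in runs. The share in runs was 3.88% for A-to-G or T-to-C sites and 3.25% for G-to-A or C-to-T sites. A-to-G runs numbered 179 with 755 sites and T-to-C runs 204 with 960 sites, and of the 52 long runs 19 were A to G and 33 were T to C. The division into runs of 3, of 4 or 5 and of 6 or more sites was made after the lengths had been seen.

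**Figure D1:**
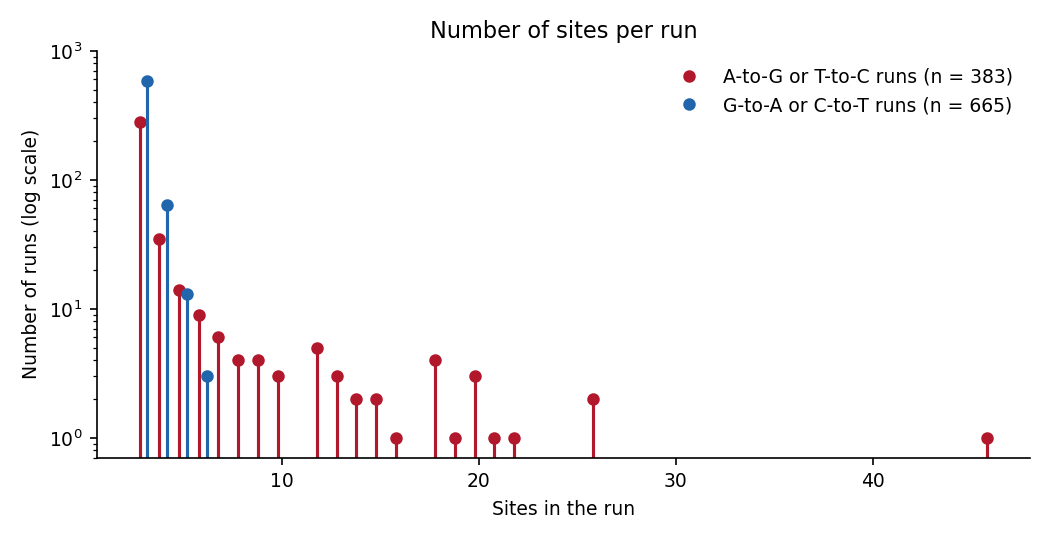
Number of runs (y axis, log scale) by the number of sites in the run (x axis), for A-to-G or T-to-C runs (red) and G-to-A or C-to-T runs (blue). The blue runs end at 6 sites, whereas 43 red runs lie beyond, up to 46 sites.

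In the long runs the sites lay close together. The distance between neighbouring sites had a median of 4 bp, and 182 of 607 neighbours (30.0%) were adjacent bases. In 3-site runs of the same change the median was 33 bp with 2.84% adjacent, close to the 38 bp and 3.92% of the G-to-A or C-to-T runs. The long runs spanned 10 to 652 bp, with a median of 97 bp.

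In the long runs, a smaller percentage of sites differed among embryos than in shorter runs of the change or over all eligible sites. At each eligible site a chi-square test asked whether the alternate share differed among the 12 embryos, with Benjamini-Hochberg adjustment over all eligible sites and a threshold of 0.05. Of all eligible sites, 78.7% differed among embryos. Of the 1715 sites in A-to-G or T-to-C runs, 800 (46.6%) differed. The share was 74.0% in 3-site runs (626 of 846), 55.7% in runs of 4 or 5 sites (117 of 210) and 8.65% in runs of 6 or more sites (57 of 659). In G-to-A or C-to-T runs 1777 of 2094 sites (84.9%) differed, including all 18 sites in the runs of 6. The A-to-G or T-to-C sites outside runs, of which 78.4% differed, were close to the eligible sites as a whole.

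The sites in the long runs were less deeply covered, with a median of 141 pooled reads against 334 in G-to-A or C-to-T runs and 295 over all eligible sites. When the test was repeated on sites with more than 12 reads in every embryo, 21 of 108 sites in long runs (19.4%) differed among embryos, against 944 of 1058 sites (89.2%) in G-to-A or C-to-T runs and 82.1% of all sites. The chi-square divided by its degrees of freedom is near 1 when embryos differ by no more than the counting of reads. Its median was 1.04 in the long runs (quartiles 0.764 and 1.41), 2.44 in runs of 4 or 5 sites, 5.03 in 3-site runs, 8.10 in G-to-A or C-to-T runs and 6.16 over all eligible sites. Among sites with more than 12 reads in every embryo it was 1.17 in the long runs and 17.3 in the G-to-A or C-to-T runs. The SD of the share over the embryos had a median of 12.3 percentage points over all sites in the long runs and 24.9 in the comparison runs, and of 6.01 and 24.1 among the deeper sites. A site that missed the threshold is not shown to have the same share in every embryo. The number of long runs that held the 108 deeper sites is not given, and neighbouring sites lie on the same reads. Those 108 include all 9 sites of a run on chromosome IV and all 6 of a run on chromosome XXI.

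**Figure D2:**
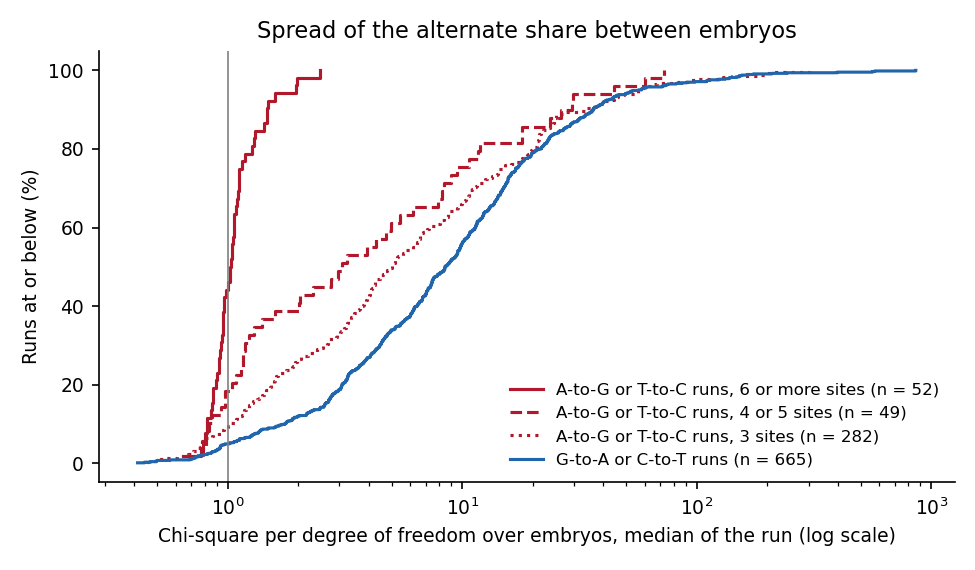
Share of runs (y axis, %) with a median chi-square per degree of freedom over the 12 embryos at or below the value on the x axis (log scale), where the grey line marks 1, the level of counting error alone. The 52 runs of 6 or more A-to-G or T-to-C sites (solid red) ended at 2.48, and the shorter runs of the same change (dashed and dotted) lay between them and the G-to-A or C-to-T runs (blue).

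Taken run by run, 25 of the 52 long runs had no site that differed among embryos, 11 had 1 such site and 16 had 2 or more. In only 2 of them did more than 50% of the sites differ, and in none did all of them. The run median of the chi-square per degree of freedom lay between 0.667 and 2.48, and was at most 2 in 51 of the 52. Of the 282 3-site runs, 31 had no site that differed and in 161 every site did. Of the 665 G-to-A or C-to-T runs, 35 (5.26%) had no such site and in 464 every site did.

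Within a long run the sites differed widely in their share and the embryos repeated the same profile. In the long runs 111 of 659 sites (16.8%) had the alternate base in less than 10% of the pooled reads, 417 in 10% to 50% and 131 in 50% or more, of which 37 were above 80%. The position of the site accounted for a median of 67.6% of the variance of the shares within a long run and the embryo for 4.41%. In the G-to-A or C-to-T runs the site accounted for 11.5% and the embryo for 37.7%. In 3-site A-to-G or T-to-C runs the values were 18.0% and 33.3%. The embryo part was not corrected for counting error, which weighs more in runs with few sites. It reached 40.7% in the 3-site run on chromosome XI from 6534528 to 6534612, where no site differed among embryos. The embryo parts of short and long runs therefore cannot be compared as differences between embryos. The correlation over the sites of a run between an embryo's shares and the pooled shares of the other embryos had a median of 0.86 in the 52 long runs, from 0.37 to 0.995, and exceeded 0.7 in 43 of them. Neighbouring sites lie on the same reads, and these correlations are a description. Across the 12 embryos, the shares of neighbouring sites had a median correlation of 0.20 in the long runs and 0.37 in the G-to-A or C-to-T runs. In the 3 runs of 6 G-to-A or C-to-T sites the medians were 0.99, 0.91 and -0.42.

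**Figure D3:**
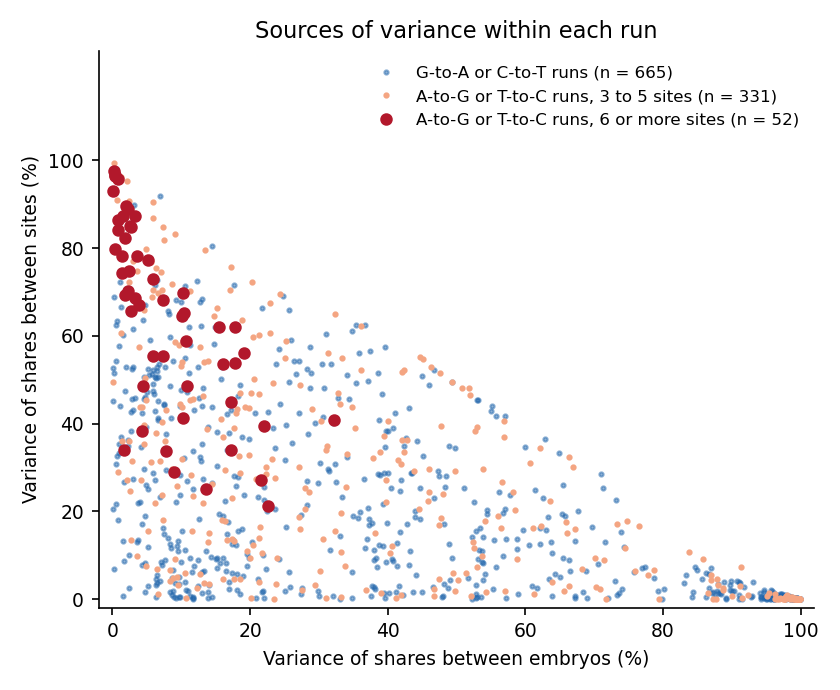
For each run, the percentage of the variance of alternate shares that lies between embryos (x axis) and between sites (y axis); the remainder belongs to neither. Runs of 6 or more A-to-G or T-to-C sites (large red points) lay to the left, at no more than 32.2% between embryos, whereas G-to-A or C-to-T runs (blue) reached 99.96%. Counting error raises the part between embryos in runs with few sites, and most blue runs had 3 sites.

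The longest run lay on chromosome VI, from 17892252 to 17892903, with 46 T-to-C sites over 652 bp and a median of 303 pooled reads per site. Pooled shares ran from 5.10% to 91.0% with a median of 21.5%, and 44 of the 46 sites did not differ among embryos by the chi-square test. At 17892513 the C share was lowest at 45.8%, and reached its highest value of 80% in another embryo (59.9% of the pooled reads). The adjacent base, 17892514, ran from 84.1% through 92.0% to 100% (91.0% pooled). Every embryo was thus above 84% at the second site. At 17892557, 43 bp on, the share was 8.11% in the lowest embryo, 18.6% at the median and 35.6% in the highest, with 21 to 99 reads per embryo. At 17892700 it ran from 42.9% through 56.3% to 65.6%, 5 bp before 17892705, which ran from 0% through 5.20% to 14.3%. The embryos' ranges at these 2 sites did not overlap. Summed over the 46 sites, the C share of an embryo lay between 25.5% and 30.1% (SD 1.53 percentage points, n = 12).

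The second long run, on chromosome XI from 17089087 to 17089181, had 26 A-to-G sites over 95 bp. None of them differed among embryos by the chi-square test, with a median of 175 pooled reads per site. Single embryos still ranged widely at shallow sites, as at 17089152 from 0% to 70% with 128 pooled reads. The first 3 sites of the run, at 17089087, 17089089 and 17089090, had pooled G shares of 79.5%, 76.6% and 66.4%. At 17089097 the share was lowest at 78.1%, had a median of 85.8% and was highest at 90.9%, and at 17089100, 3 bp on, it ran from 22.7% through 37.5% to 53.1%. Every embryo was above 75% at the former and below 55% at the latter. From 17089113 on, the pooled shares lay between 6.19% and 42.9%. A run of 21 A-to-G sites lay 1166 bp before it on the reference, from 17087788 to 17087921, and likewise none of its sites differed among embryos. There the G share at 17087825 ran from 54.5% through 63.6% to 72.4%, and at 17087910 from 68.2% through 84.3% to 96.0%, while the 4 sites from 17087788 to 17087793 had pooled shares of 24.5%, 16.0%, 11.5% and 15.9%.

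On chromosome X, 26 T-to-C sites from 15720520 to 15720641 had pooled shares from 5.54% to 94.3%, and 23 did not differ among embryos. Summed over the run, embryos lay between 23.7% and 32.0%. On chromosome XVI, 22 T-to-C sites from 18689301 to 18689525 had shares from 9.64% to 60.7% and embryos between 21.3% and 30.0%. This run was shallow, with 0 to 24 reads per site and embryo, and single-embryo values there ran from 0% to 100%. On chromosome XVII, none of 20 A-to-G sites from 12845057 to 12845153 differed by the chi-square test, with a median of 130 pooled reads per site. Adjacent sites there at 12845100 and 12845101 had pooled G shares of 90.2% (95% exact interval 83.7% to 94.7%) and 28.7% (21.1% to 37.3%). Intervals cover counting error only, since reads copied by PCR are not independent molecules.

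**Figure D4:**
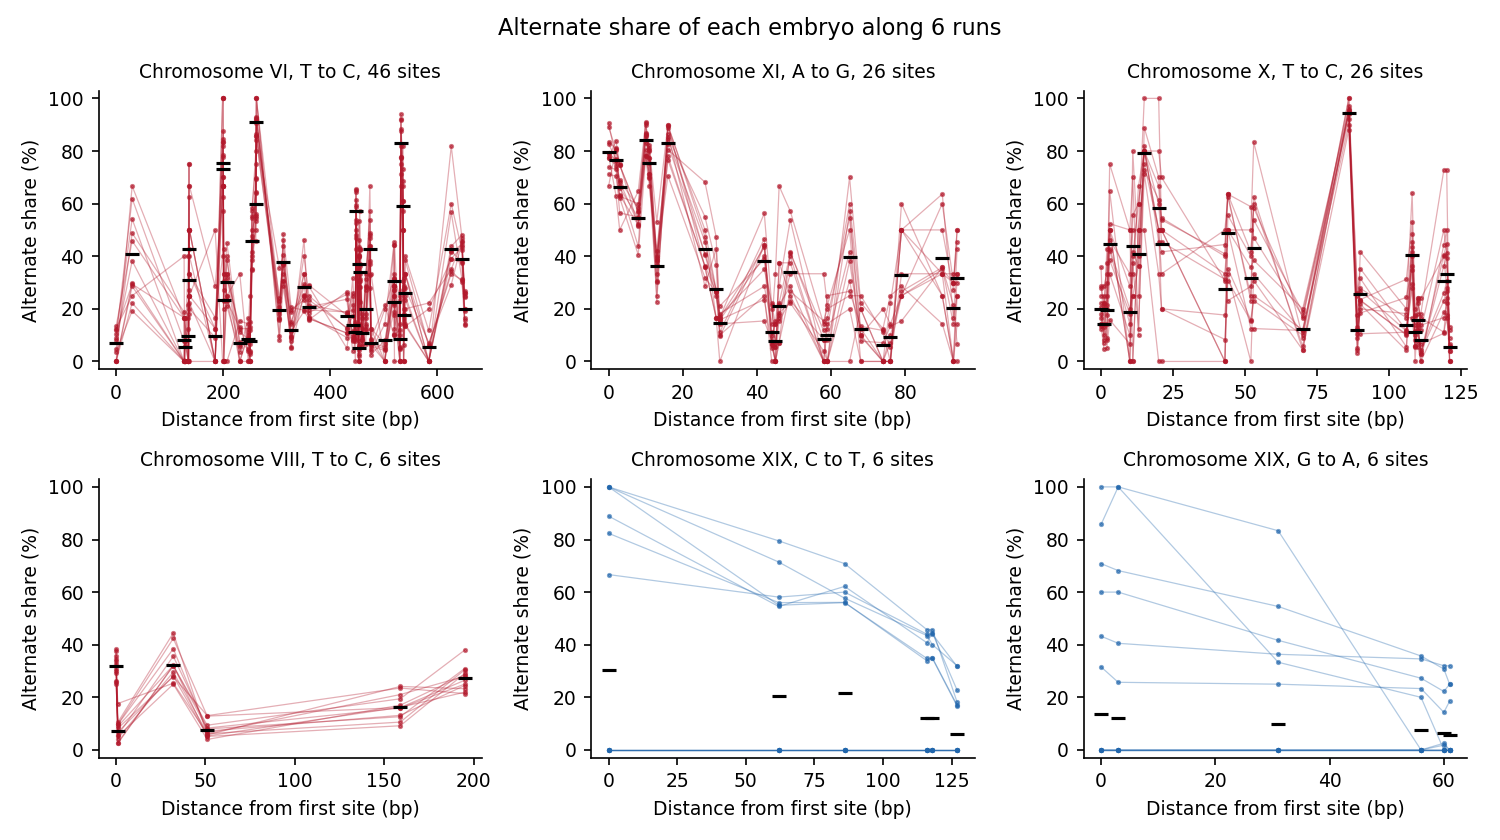
Alternate share of each of the 12 embryos (points joined by a line per embryo, y axis in %) against the distance from the first site of the run (x axis, bp) for 4 A-to-G or T-to-C runs (red) and 2 G-to-A or C-to-T runs (blue), with black bars for the pooled share. In the red runs the embryos follow a shared profile of high and low sites. In the 2 blue runs, both on chromosome XIX, they separate into embryos at or near 0% and embryos well above it. The G-to-A run from 1068211 to 1068517, which is not drawn, had no such split, with embryos between 26.4% and 63.2%.

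The 2 deepest long runs are given next; they were chosen for their depth after the values had been seen. On chromosome IV from 815177 to 815344, 9 A-to-G sites had 1949 to 4063 pooled reads, and 8 of them did not differ among embryos. The G share at 815177 was 55.7% ± 4.05 (SD, n = 12), at 815187, 10 bp on, 12.3% ± 2.39, at 815254 10.4% ± 2.14 and at 815269 37.8% ± 4.49. Only 815269 differed among embryos (adjusted chi-square p = 0.00107), with a range from 31.7% to 44.6%. At 8 of the 9 sites every embryo had fewer G than A reads. The last site, 815344, ran from 5.09% through 7.94% to 11.9%, above 5% in each of the 12 embryos. On chromosome XXI from 14285424 to 14285460, 6 A-to-G sites had 1114 to 8050 pooled reads. The adjacent sites 14285439 and 14285440 had G shares of 15.4% ± 1.79 and 69.1% ± 2.41 (SD, n = 12) and did not overlap between embryos. At 14285460 the share ran from 27.1% through 31.5% to 34.3%. The sites 14285426 and 14285443 differed among embryos (adjusted chi-square p = 0.0228 and 0.00155), with ranges of 6.14% to 22.6% and 55.2% to 73.7%.

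The comparison runs looked different in the same libraries. The longest G-to-A or C-to-T runs were 3 runs of 6 sites, all on chromosome XIX. In the 6 C-to-T sites from 15674375 to 15674502, 6 embryos had no T read at any site, and in the other 6 the T share of the run lay between 42.0% and 59.6%. In the 6 G-to-A sites from 15304399 to 15304460, 6 embryos were at or below 0.375% and the other 6 between 23.7% and 66.7%. In the 6 G-to-A sites from 1068211 to 1068517, embryos lay between 26.4% and 63.2%. The median chi-square per degree of freedom was 24.8, 11.6 and 12.4 in these 3 runs. Among all sites, an embryo with at most 5% alternate reads was common: the median number of such embryos per site was 5 in G-to-A or C-to-T runs, 4 over all eligible sites and 1 in the long A-to-G or T-to-C runs.

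Chromosome XIX, the sex chromosome of this species, carried 156 of the 665 G-to-A or C-to-T runs (23.5%) and 33 of the 383 A-to-G or T-to-C runs (8.62%), so the comparison was repeated without it. The longest G-to-A or C-to-T run then had 5 sites, against 46. Of the sites in the 49 remaining long A-to-G or T-to-C runs 7.40% differed among embryos, and of those in the 509 remaining G-to-A or C-to-T runs 81.3%. Summed over all sites of the long runs, the alternate share of an embryo was lowest at 31.1%, had a median of 32.9% and was highest at 34.4% (SD 0.919 percentage points, n = 12). In G-to-A or C-to-T runs it ran from 24.8% through 30.9% to 38.1% (SD 5.83), with embryos 1, 3, 8, 9, 10 and 12 below 27% and the other 6 above 34%. Without chromosome XIX it ran from 32.8% to 37.6% (SD 1.64), against 30.2% to 33.8% (SD 1.07) in the long runs, so the gap in this summed value lay mainly on that chromosome. Over all eligible sites without that chromosome the summed share ran from 39.6% to 40.3% (SD 0.237). A narrow range of the summed share was thus not particular to the long runs. With chromosome XIX kept, the summed share in 3-site A-to-G or T-to-C runs ran from 33.5% to 46.1% (SD 4.12).

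**Figure D5:**
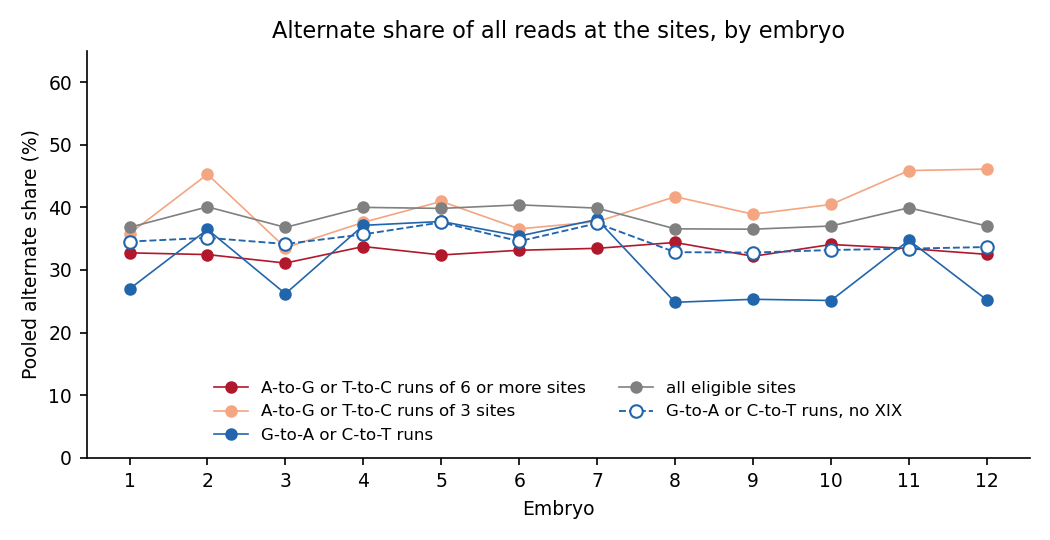
Alternate share of all reads at the sites (y axis, %) in each embryo (x axis) for the long A-to-G or T-to-C runs (red), the 3-site runs of the same change (orange), G-to-A or C-to-T runs (blue; open symbols without chromosome XIX) and all eligible sites (grey). The long runs stayed between 31.1% and 34.4%, whereas the filled blue symbols fell below 27% in 6 embryos. Without chromosome XIX the blue values lay between 32.8% and 37.6%.

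No embryo was high throughout the long runs. The share of a run was above its median over the embryos in 19 of the 52 long runs in embryo 12, the fewest, and in 32 in embryo 10, the most. The median deviation of an embryo from the mean of a run lay between -1.48 and 1.65 percentage points. The SD over embryos of a run's summed share had a median of 5.64 percentage points and ranged from 1.06 to 13.9 over the 52 runs.

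Sites where the alternate base was read in every embryo but always less often than the reference base made up 0.972% of all eligible sites. They made up 131 of the 1715 sites in the runs (7.64%), 90 of the 659 in the long runs (13.7%) and 12 of the 2094 in G-to-A or C-to-T runs (0.573%). With more than 12 reads in every embryo, they were 54 of 108 sites in the long runs, 9 of 1058 sites in G-to-A or C-to-T runs (0.851%) and 1.77% of all sites. The opposite, more alternate than reference reads in every embryo with both bases read, held for 0.4% of all eligible sites, for 30 sites of the runs (1.75%) and for 22 of the long runs (3.34%). An alternate share between 5% and 95% in each of the 12 embryos was found at 234 of 659 sites in the long runs (35.5%). It was found at 11.2% of the sites in G-to-A or C-to-T runs and 16.8% of all eligible sites. Among sites with more than 12 reads in every embryo it was found at 85 of 108 in the long runs (78.7%). The values there were 12.9% in G-to-A or C-to-T runs and 21.0% over all sites. The 108 deeper sites need not stand for the long runs in general.

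In 2 runs the alternate base was read in every embryo at every site, always less often than the reference base, and no site differed among embryos. They were named for this pattern, which no G-to-A or C-to-T run had. The first was on chromosome VIII from 19277380 to 19277575, with 6 T-to-C sites and a median of 764 pooled reads. Its C share at 19277380 ran from 25% through 31.7% to 38.5%, and at the adjacent 19277381 from 2.50% through 7.49% to 17.6%. At 19277412 it ran from 25% through 32.0% to 44.4%, at 19277431 it had a median of 6.73%, at 19277539 it ran from 9.20% to 24.1% and at 19277575 from 21.4% to 37.9%. The adjacent first sites did not overlap between embryos. The second was on chromosome XI from 6534528 to 6534612, with 3 T-to-C sites at pooled shares of 33.9%, 34.4% and 37.9%. At 6534612 the embryos ran from 30.6% through 38.7% to 45.5%.

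Alternate and reference counts were also compared at every eligible site with edgeR's quasi-likelihood test, with the embryo as a block. The pooled share entered the rule as a limit at both ends, so the calls are a description. Over all eligible sites 17.7% had fewer and 4.86% more alternate than reference reads at an adjusted p below 0.05. In the runs 668 sites (39.0%) had fewer and 118 (6.88%) more, and in the long runs 409 (62.1%) had fewer and 66 (10.0%) more. In G-to-A or C-to-T runs 401 (19.2%) had fewer and 72 (3.44%) more. The order of the 2 kinds of run rested on the test: an exact binomial test on pooled reads, which ignores the spread between embryos, gave fewer alternate reads at 64.2% of the sites in the runs and 71.2% of those in G-to-A or C-to-T runs, with 60.9% over all eligible sites. DESeq2 gave 52.6%, 58.3% and 46.8%. For the long runs the binomial test gave 71.8% and DESeq2 59.9%, close to the values of the G-to-A or C-to-T runs in the same tests. In the run on chromosome VI with 46 sites edgeR called 32 sites lower and 3 higher.

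Most long runs lay near another run of the same change. Another such run, of any length from 3 sites, lay within 5000 bp of 36 of the 52 long runs (69.2%). A run of the complementary change lay within that distance of 3 (5.77%). For all 383 runs of any length the 2 values were 16.4% and 3.39%, and for all G-to-A or C-to-T runs 10.1% and 7.52%. Of the 3 runs of 6 G-to-A or C-to-T sites, 1 lay near another run of the same change and none near the complementary change. When runs of the same change within 5000 bp were joined, a stretch on chromosome XVI from 18689221 to 18690446 held 4 T-to-C runs with 59 sites, of which 55 did not differ among embryos. On chromosome VI, 6676328 to 6677866 held 5 T-to-C runs with 56 sites, and on chromosome X, 15720520 to 15721987 held 4 T-to-C runs with 54 sites. The A-to-G runs on chromosome XI from 17087788 to 17089181 held 47 sites, and those on chromosome XVII from 12471098 to 12472580 held 38. Neighbouring long runs of the same change made 18 pairs, with gaps from 6 to 2039 bp and a median of 323 bp. Where the gap was at most 200 bp, an eligible site of another change had ended the first run. Of the 18 gaps, 12 exceeded 200 bp, and 4 were close to each other in size, at 1050 bp on chromosome I, 1212 bp on X, 1166 bp on XI and 1193 bp on XVII. These 4 were picked out after the gaps had been seen. Gaps of 305, 341 and 351 bp were also close to each other, and gap sizes were not tested. The bases in these gaps were not examined.

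The runs were found on 21 chromosomes and the long runs on 16 of them. Chromosome VI had 6 long runs and chromosomes I, VIII, X and XIII had 5 each. Chromosomes V, IX, XIV, XV and XVIII had shorter runs only.

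Sites that the rule had passed over within the long runs carried mostly the same change. Of 174 such sites, 156 (89.7%) were of the run's own change, compared with 17 of 42 (40.5%) in 3-site runs and 7 of 53 (13.2%) in 3-site G-to-A or C-to-T runs. Within 1000 bp on either side of the long runs, 646 of 1238 listed sites that were no members (52.2%) were of the run's change. The share was 38.6% around runs of 4 or 5 sites, 13.5% around 3-site runs and 15.9% around 3-site G-to-A or C-to-T runs, and over all listed sites A to G made up 12.4%, T to C 12.7%, G to A 15.8% and C to T 15.6%. Around the 3-site runs the change was thus about as frequent as over all listed sites.

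The long runs also differed in mapping quality. The share of reads at low mapping quality had a median of 1.53% at their sites, 0.347% in G-to-A or C-to-T runs and 0.239% over all eligible sites, and the share at low base quality was 0.717%, 0.469% and 0.486%. Reads in improper pairs averaged 0.187%, 0.337% and 0.357%, and reads with a base other than the listed ones 0.0142%, 0.018% and 0.042%. Their part in the results was not tested. When the limit on low mapping quality was lowered from 5% to 1%, the rule gave 16 long A-to-G or T-to-C runs in place of 52, and the longest G-to-A or C-to-T run had 6 sites.

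The limits of the rule were as follows. The lowest pooled share among the members was 5% and the highest 94.7%, and the nearest sites of the change outside the limits had 4.99% and 95.02%. Of the members 45 had 5% to 6% alternate reads and 62 had 60 to 69 reads. The largest gap within a run was 197 bp, and the smallest gap that ended a stretch of the same change was 201 bp. Stretches of only 2 neighbouring sites numbered 2699 for A to G or T to C and 5062 for G to A or C to T. Of the sites in the former, 78.3% differed among embryos.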

How the data were processed

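The authors made stranded mRNA libraries from 200 ng of RNA per embryo with 12 cycles of PCR, trimmed reads (cutadapt 2.4), aligned them to *gasAcu1-4* using STAR (2-pass) and processed them with GATK 4.1.4.1. The deposited values are counts, whole numbers of reference and alternate reads per site from GATK's allele counter, without normalization or molecular identifiers, and columns of low-quality reads.

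Sites were joined over the 12 embryos by position and alleles and pooled. Chi-square tests (scipy 1.17.1) used the 12 pairs of counts; their p is approximate where an embryo has few reads. edgeR 4.0.16 was fitted to all eligible sites with a reference and an alternate column for each embryo, which share a library size and form its block, since both alleles were counted in the same library. DESeq2 1.42.0 (R 4.3.3), a binomial test, other limits and leaving out each embryo were alternatives. Both tests were checked on simulated data with the depths of the eligible sites. For the chi-square test, each embryo at a changed site was given at random either no alternate reads or an expected share of 50%. The test recovered 156 of 200 such sites and called 11 unchanged sites. Smaller differences between embryos were not simulated. For edgeR, 20184 of the eligible sites were simulated, with the same expected share in every embryo and some random spread. Sites at which some embryos lack an allele were not simulated, so recovery at such sites is not known. Under these settings edgeR recovered 67 of 100 sites at a log2 ratio of 1 and 98 of 100 at 2. It called 7 unchanged sites. Recovery at the lower depth of the long runs was not simulated separately. Named were the 6 runs with the most sites, runs with every site below 50% in every embryo and none differing, and the 3 longest G-to-A or C-to-T runs; the deepest runs were added after the values were seen. Members and lists were chosen with earlier results of these data known.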

Additional observations from a re-analysis of the deposited data

Results flagged for a closer look

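Within the A-to-G or T-to-C runs of 6 or more sites, 156 listed sites of the same change were left out by the rule, and the comparisons between embryos do not use them. Of these, 30 were not listed in every embryo, 58 had fewer than 60 pooled reads, 59 had an alternate share below 5%, 11 above 95% and 31 had more than 5% of reads at low mapping quality, and a site can be in several of these counts. The long runs as given therefore hold fewer sites of the change than the stretches they lie in. The part of mapping in which sites were left out was not tested.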

How the results depend on the processing

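Of 183 alternative values, 155 were within 1.5 times the value reported and 28 were not. Most of the 183 came from leaving out 1 embryo at a time, and all of those were within 1.5 times. The 28 all came from the other settings. With at least 4, 5 or 6 sites per run, the A-to-G or T-to-C runs fell to 101, 66 and 52 (869, 729 and 659 sites) and the G-to-A or C-to-T runs to 80, 16 and 3, and with gaps of at most 50 bp to 225 and 269; fewer runs follow from the stricter rule. With at most 1% of reads at low mapping quality they were 233 (841 sites) and 429, with 16 long A-to-G or T-to-C runs, and with at least 120 pooled reads there were 31 long runs. With more than 12 reads in every embryo, fewer sites were tested. There 393 members (68.3%), 21 members of long runs and 944 sites of G-to-A or C-to-T runs differed among embryos, against 82.1% of all sites. At that depth 86 members (15.0%) were below 50% in every embryo, against 1.77% of all sites. edgeR called 176 members lower (30.6%) and 42 higher (7.30%), against 17.9% and 5.38% of all sites. At an adjusted p below 0.01 edgeR called 380 (22.2%) and 60 (3.50%), against 2.13% and 0.807% of all sites. At that limit 34 members of long runs (5.16%) differed among embryos by the chi-square test, against 75.2% of all sites. The binomial test called 1101 lower (64.2%, against 60.9% of all eligible sites) and 331 higher (19.3%, against 20.3%). DESeq2 called 229 higher (13.4%, against 13.2%). In both tests, calls of more alternate reads were thus about as frequent in the runs as over all eligible sites. Why these counts moved was not tested. Without the replicate block edgeR called 696 (40.6%) lower and 132 (7.70%) higher, against 20.4% and 5.08% of all sites. With TMM factors it called 592 (34.5%) and 151 (8.80%), against 13.9% and 6.44%. Settings at 6 sites and without chromosome XIX were chosen after seeing the data.

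Leaving out each embryo gave 364 to 377 A-to-G or T-to-C runs with 1618 to 1686 sites, and 49 to 53 long runs. G-to-A or C-to-T runs numbered 642 to 662, and 54 to 63 members of long runs differed among the remaining embryos. edgeR called fewer alternate reads at 585 to 683 members (34.1% to 39.8%), against 11.4% to 18.6% of all eligible sites. The count of long G-to-A or C-to-T runs stayed between 1 and 4 and their longest run at 6 sites under every limit and embryo left out. Depth also limits the long runs, in which 108 of 659 sites had more than 12 reads in every embryo.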
